A study of Homo sapiens with 40 samples.

Results

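The chromatin around CXCR4, ACKR3 and CXCL12 was examined in BT474 and BT474R cells. CXCR4 is the G protein-coupled receptor of the chemokine CXCL12, and ACKR3 (also called CXCR7) is an atypical receptor that binds the same ligand, signals mainly through arrestins and scavenges CXCL12 from the surroundings. CXCL12 binding to CXCR4 activates inhibitory G proteins and drives directed migration, and in breast cancer the axis is known for its part in the spread of tumor cells to organs that make CXCL12. The members were the accessible regions whose midpoint lay in the body of 1 of these 3 genes or within 100 kb of either end. The 40 peak lists held 71600 regions found in at least 2 lists, and 24 of them met this rule: 8 at CXCR4, 6 at ACKR3 and 10 at CXCL12.

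Accessibility was measured by ATAC-seq, which marks open chromatin by where a transposase can cut and tag the DNA. BT474 is an established breast ductal carcinoma line with high HER2 levels whose growth trastuzumab, an antibody to HER2, restrains. BT474R is a single clone derived from BT474 that resists the antibody, so the line comparison sets 1 parental line against 1 clone. Cells of both lines were serum-starved and then either collected (baseline, 0 h) or given epidermal growth factor (EGF), heregulin (HRG) or vehicle (control) for 1, 12 or 24 h, with 2 libraries in each of the 10 groups of a line and 20 libraries per line. EGF binds EGFR and HRG binds HER3 and HER4, and each of these receptors can pair with HER2. The study's methods state duplicate treatments of plated wells and do not say whether the duplicates came from separate days or passages, so the p-values measure the spread between these libraries.

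Each list gave the peaks of 1 library with a peak score, and no read counts, so the depth was unknown and no counting interval could be given. A library was taken as open at a region when it held a peak there. Within a library the peaks were ranked by score and the rank was written as a percentile, in which 100 is the highest-scoring peak and 0 stands for no peak. Libraries held 32479 to 56846 peaks, and the 6 libraries of BT474R at 12 h held 32479 to 45808. Some values are also given without the 12 h libraries of both lines, an alternative chosen after seeing the data. The promoters of 8 of 8 luminal epithelial marker genes were open in 19 or 20 of the 20 libraries of each line, ERBB2, the HER2 gene, among them. Of 5 leukocyte markers, none had a promoter open in 19 or 20 libraries of either line, and PTPRC, CD3E and LYZ had no promoter region.

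CXCR4 (ENSG00000121966.8) lies on the minus strand of chromosome 2 at chr2:136114349-136119177 in GRCh38. ACKR3 (ENSG00000144476.6) lies on the plus strand at chr2:236567787-236582354, and CXCL12 (ENSG00000107562.18) on the minus strand at chr10:44370165-44386493. Regions are named by the gene and the distance of their midpoint from its canonical start site in the direction of transcription, so that CXCL12 +59.8 kb lies downstream and CXCL12 -14.3 kb upstream of that start. Of the 24 regions, 8 lay within 10 kb of their gene and 15 within 50 kb. The only other annotated genes whose promoter a distal member region overlapped were non-coding, namely ENSG00000237262 at CXCR4 +41.1 kb and ENSG00000287901 at CXCL12 +74.0 kb. The assay does not tie a distal region to a gene, and no region is assigned to one here.

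The sequences around the summits of the regions on which the ligand results turned are shown first. Each is the reference sequence within 100 bases of the summit of the highest-ranked peak, on the plus strand of GRCh38, 5′ to 3′, and capitals mark matches on either strand to 10 motifs, namely AP-1, STAT, hypoxia response, FOXA, GATA, ETS, the GC box, ISRE, NF-kB and CTCF. CXCL12 +83.8 kb (chr10:44301170-44301370), in an intron of the non-coding gene ENSG00000287901, and the intergenic CXCL12 +59.8 kb (chr10:44325139-44325339) are the regions whose ligand differences are given first.
CXCL12 +83.8 kb: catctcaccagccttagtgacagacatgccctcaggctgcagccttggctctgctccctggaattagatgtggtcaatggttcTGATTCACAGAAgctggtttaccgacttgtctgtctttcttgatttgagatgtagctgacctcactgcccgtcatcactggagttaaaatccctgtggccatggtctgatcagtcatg
CXCL12 +59.8 kb: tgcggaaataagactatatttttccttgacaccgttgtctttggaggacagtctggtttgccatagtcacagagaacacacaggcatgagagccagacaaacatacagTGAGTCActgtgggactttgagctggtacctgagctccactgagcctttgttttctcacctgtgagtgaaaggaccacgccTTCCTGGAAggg

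The AP-1 motif was searched as TGANTCA and the STAT motif as TTCNNNGAA. Each of these windows held a match to both, which overlapped in CXCL12 +83.8 kb and stood apart in CXCL12 +59.8 kb. AP-1 matches were in 2 of the 24 member windows against 16.3% of all 71600 windows, and STAT matches in 3 of 24 against 5.37%. Both motifs together were in 1.03% of all windows and in these 2 member windows. The matches are letters in a window, and binding of a factor was not measured.

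The next windows belong to regions with a response in 1 line or at 1 time. CXCR4 -91.5 kb (chr2:136209648-136209848) and CXCL12 -14.3 kb (chr10:44399249-44399449) were intergenic. ACKR3 +6.5 kb (chr2:236576191-236576391) lay in an ACKR3 intron.
CXCL12 -14.3 kb: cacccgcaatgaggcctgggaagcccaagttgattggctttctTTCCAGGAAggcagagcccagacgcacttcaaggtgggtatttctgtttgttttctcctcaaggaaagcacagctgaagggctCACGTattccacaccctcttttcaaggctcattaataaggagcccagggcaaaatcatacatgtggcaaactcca
CXCR4 -91.5 kb: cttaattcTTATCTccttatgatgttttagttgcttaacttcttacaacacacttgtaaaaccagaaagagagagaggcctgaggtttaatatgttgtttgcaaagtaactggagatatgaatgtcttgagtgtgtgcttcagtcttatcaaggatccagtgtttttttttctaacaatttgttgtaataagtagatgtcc
ACKR3 +6.5 kb: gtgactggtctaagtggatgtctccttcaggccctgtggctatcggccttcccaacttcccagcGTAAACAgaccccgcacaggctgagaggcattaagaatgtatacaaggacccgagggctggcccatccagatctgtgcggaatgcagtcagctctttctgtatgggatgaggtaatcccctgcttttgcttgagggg

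A match to the FOXA motif TGTTTAC was in ACKR3 +6.5 kb, and such matches were in 2 of 24 member windows against 8.50% of all windows. A match to the GATA motif AGATAA was in CXCR4 -91.5 kb, the only one among the members, against 8.93% of all windows. CXCL12 -14.3 kb held a STAT match and a match to the hypoxia response motif ACGTG, which was in 4 of 24 member windows against 13.1% of all windows. CTCF matches were in 2 member windows, CXCL12 +74.0 kb and CXCL12 -1.6 kb, against 3.03% of all, and an ISRE match in 1, CXCL12 -94.3 kb, against 1.65%. No member window held an NF-kB match (2.48% of all) or the ETS motif CCGGAA (6.92% of all).

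For the promoters, the 250 bases before the RefSeq start (GRCh38.p14, minus strand, read in the direction of the gene) are shown for CXCR4 (start-site window chr2:136118100-136118399) and CXCL12 (chr10:44385048-44385347), with GC boxes (GGGCGG) in capitals. RefSeq promoter sequence was matched for these 2 of the 3 genes.
CXCR4 promoter: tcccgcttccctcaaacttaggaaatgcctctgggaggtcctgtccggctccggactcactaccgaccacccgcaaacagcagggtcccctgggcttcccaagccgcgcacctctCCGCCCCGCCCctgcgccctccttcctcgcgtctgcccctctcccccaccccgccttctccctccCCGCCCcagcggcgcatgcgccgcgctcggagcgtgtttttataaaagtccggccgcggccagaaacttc
CXCL12 promoter: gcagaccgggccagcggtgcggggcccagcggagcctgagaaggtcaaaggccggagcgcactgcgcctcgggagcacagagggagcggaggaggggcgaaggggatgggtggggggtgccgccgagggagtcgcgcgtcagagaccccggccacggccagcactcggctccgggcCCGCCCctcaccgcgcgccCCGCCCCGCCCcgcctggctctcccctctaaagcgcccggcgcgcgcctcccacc

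A GC box was in 42.6% of the same 250-base windows of all 35116 listed promoters. No AP-1 or STAT match was in either of these windows, where 6.57% of all promoters held each.

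The receptors were taken first. The CXCR4 promoter was open in all 40 libraries, as 1 merged region of 2623 bp (CXCR4 +0.7 kb) that reached over several annotated CXCR4 starts and held 1 or 2 peaks per library. It ranked from 43.8 to 75.2 in BT474 with a median of 61.0, and from 63.8 to 90.3 in BT474R with a median of 74.2. The 2 ranges overlapped, and BT474R was higher by 12.8 percentile points (SE 2.00, limma adjusted p = 3.49e-06). The bases of the region covered by peaks averaged 1170 ± 196 bp (SD, n = 20) in BT474 and 1015 ± 506 bp (SD, n = 20) in BT474R.

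At the CXCR4 promoter neither ligand made a called difference in percentile in either line. The study, in contrast, reports a significant change of consensus peaks at this promoter in BT474R after EGF. Its differential test used reads and was not repeated here. The percentile is that of the best peak in the region and does not count further peaks. In control-BT474 the region ranked from 52.0 to 74.5 (median 67.5, n = 6), in EGF-BT474 from 43.8 to 72.6 (median 60.5, n = 6) and in HRG-BT474 from 47.4 to 75.2 (median 64.5, n = 6). In BT474R the medians were 74.6 in control, 69.1 in EGF and 74.8 in HRG, again with overlapping ranges. Averaged over 1, 12 and 24 h, EGF differed from control by -5.17 (SE 4.35) in BT474 and -3.50 (SE 3.15) in BT474R, and HRG by -1.64 (SE 4.35) and 1.16 (SE 3.15), with limma adjusted p between 0.554 and 1.

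**Figure D1:**
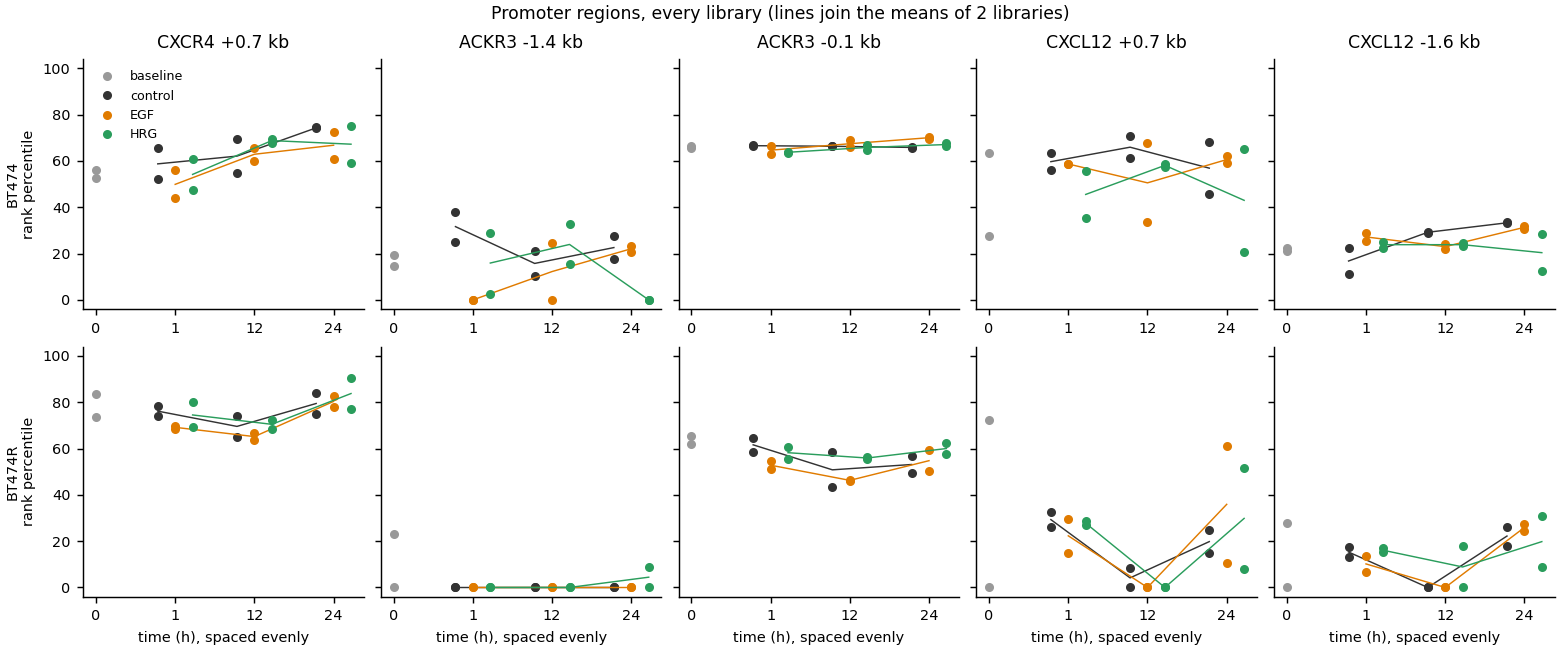
Rank percentile (vertical axis, 0 to 100) at 5 promoter regions against time in h (horizontal axis, spaced evenly) in BT474 (upper row) and BT474R (lower row). Each point is 1 library, colored by arm, and lines join the means of 2 libraries; CXCR4 +0.7 kb and ACKR3 -0.1 kb are open in every library, ACKR3 -1.4 kb is at 0 in 18 of 20 BT474R libraries, and the CXCL12 regions reach 0 only in BT474R.

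The main ACKR3 promoter region, ACKR3 -0.1 kb, was open in all 40 libraries and had the smallest SD in BT474 of the 8 regions open in every library. It ranked from 63.0 to 70.4 there (66.4 ± 1.88, SD, n = 20) and from 43.2 to 65.6 in BT474R (55.7 ± 6.26, SD, n = 20), which was lower by 10.7 points (limma adjusted p = 7.73e-09). In the line comparison the CXCR4 promoter region was thus higher and the main ACKR3 promoter region lower in BT474R. Of all promoter regions 19.4% were called as higher and 61.4% as lower in BT474R. A second region at the upstream ACKR3 start, ACKR3 -1.4 kb, was open in 15 of 20 BT474 libraries and 2 of 20 BT474R libraries (Fisher's exact test, two-sided, p = 6.86e-05). In BT474 it was open in 6 of 6 control libraries, 3 of 6 EGF libraries and 4 of 6 HRG libraries, differences that did not pass the test.

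The promoter of the ligand gene was open in all 20 BT474 libraries and 14 of 20 BT474R libraries, both at its main start (CXCL12 +0.7 kb) and at the upstream region CXCL12 -1.6 kb. CXCL12 +0.7 kb ranked from 20.7 to 70.7 in BT474 (median 58.7) and from 0 to 72.2 in BT474R (median 14.9). BT474R was lower by 33.9 points (SE 5.85, limma adjusted p = 1.33e-05), and in presence the test gave p = 0.0202 by Fisher's exact test, two-sided (0.0628 adjusted over all regions). The BT474R libraries with no peak at CXCL12 +0.7 kb were 5 of the 6 collected at 12 h and 1 of the 2 at baseline, and the 12 h libraries of BT474R held 32479 to 45808 peaks; the part of peak number in this was not tested. With the same number of top peaks kept in every library, CXCL12 +0.7 kb was open in 17 BT474 and 3 BT474R libraries.

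Across the CXCR4 flanks the lines differed in which regions were open. CXCR4 +13.0 kb, downstream of the gene, had a peak in 1 BT474 library (percentile 2.77) and in all 20 BT474R libraries, where it ranked from 14.7 to 62.9. CXCR4 -96.7 kb was open in 0 and 19 libraries, and CXCR4 -57.5 kb in 0 and 11 (Fisher p = 1.45e-04, exact, two-sided). CXCR4 +45.1 kb went the other way, with 9 BT474 and 2 BT474R libraries, and is described with the ligands below.

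At ACKR3, the intronic region ACKR3 +9.5 kb was open in 14 BT474 libraries, where its highest percentile was 30.0, and in 0 of 20 BT474R libraries (Fisher p = 3.34e-06, exact, two-sided). ACKR3 +6.5 kb, also intronic, was open in 18 and 19 libraries and ranked higher in BT474R by 11.1 points (limma adjusted p = 8.46e-06). The downstream regions ACKR3 +23.2 kb and ACKR3 +31.4 kb did not pass either line test, with differences of -0.58 (SE 1.48) and -0.47 (SE 1.05).

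At CXCL12, CXCL12 -14.3 kb and CXCL12 +45.7 kb were open in 0 of 20 BT474 and 20 of 20 BT474R libraries (Fisher p = 1.45e-11 each, exact, two-sided). CXCL12 -14.3 kb ranked from 10.9 to 61.8 in BT474R with a median of 46.1, the highest median of the 5 regions that were open in BT474R alone. CXCL12 +74.0 kb, at the start of ENSG00000287901, was open in all 40 libraries and ranked lower in BT474R by 17.7 points (limma adjusted p = 3.83e-11). CXCL12 +59.8 kb, CXCL12 -88.3 kb and CXCL12 -94.3 kb ranked higher in BT474R by 12.4, 6.67 and 10.8 points.

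Over the 3 loci, presence of a peak was called in 10 of 24 regions between the lines at an unadjusted p under 0.05: 5 were open in more BT474R libraries (20.8% of the members against 13.9% of all 71600 regions) and 5 in fewer (20.8% against 22.3%). By percentile 11 of 24 were higher in BT474R (45.8% against 31.6% of all regions) and 9 lower (37.5% against 46.0%). The shares lie near those of the genome, and nothing particular to these loci is read from them. The medians were -0.53 points over the 24 regions and -1.22 over all regions. By locus the higher and lower calls were 5 and 2 at CXCR4, 1 and 3 at ACKR3, and 5 and 4 at CXCL12. When libraries with no peak were left out of the fit rather than set to 0, 7 regions were called by percentile, and with an equal number of top peaks 13 were.

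**Figure D2:**
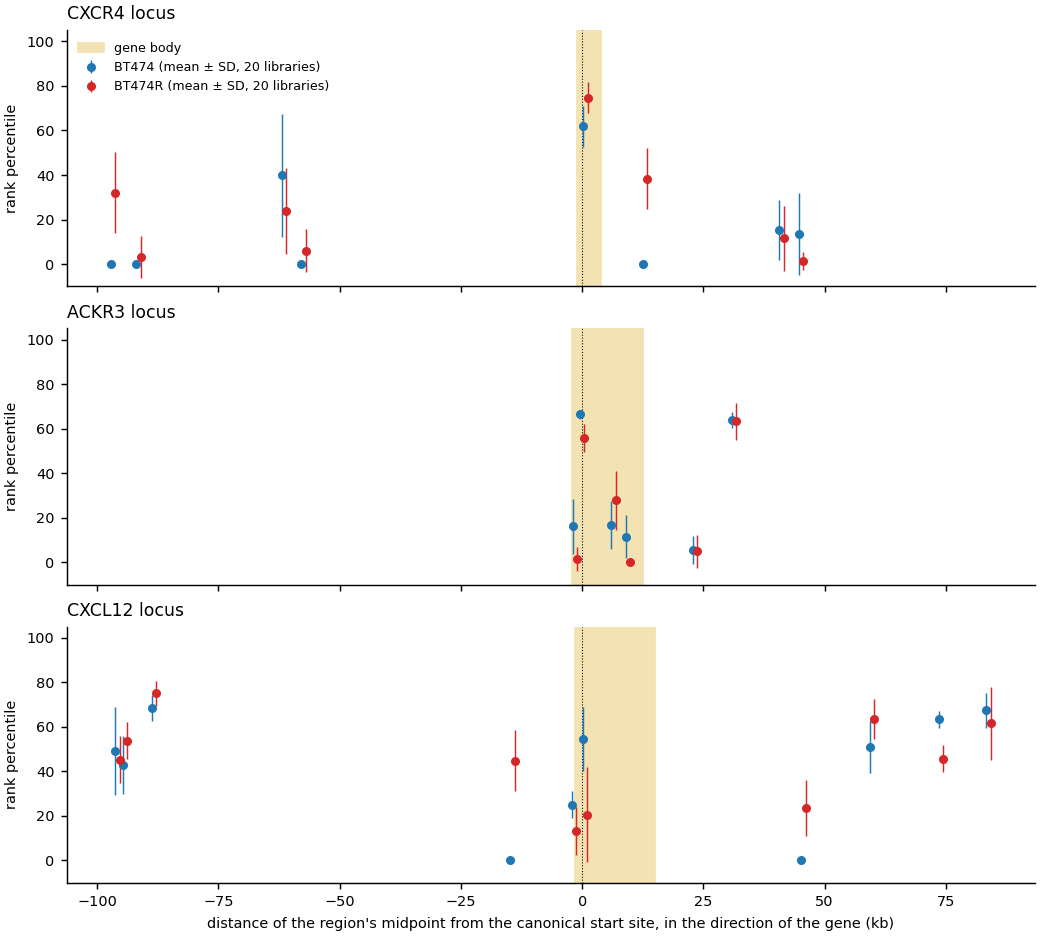
Mean rank percentile (vertical axis) of each region against the distance of its midpoint from the canonical start site in kb (horizontal axis), 1 panel per locus. Blue points are BT474 and red points BT474R, each the mean of 20 libraries with its SD, set slightly apart; the shaded band is the gene body. CXCR4 +13.0 kb and CXCL12 -14.3 kb lie near 0 in BT474 and at 38.4 and 44.7 in BT474R.

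**Figure D3:**
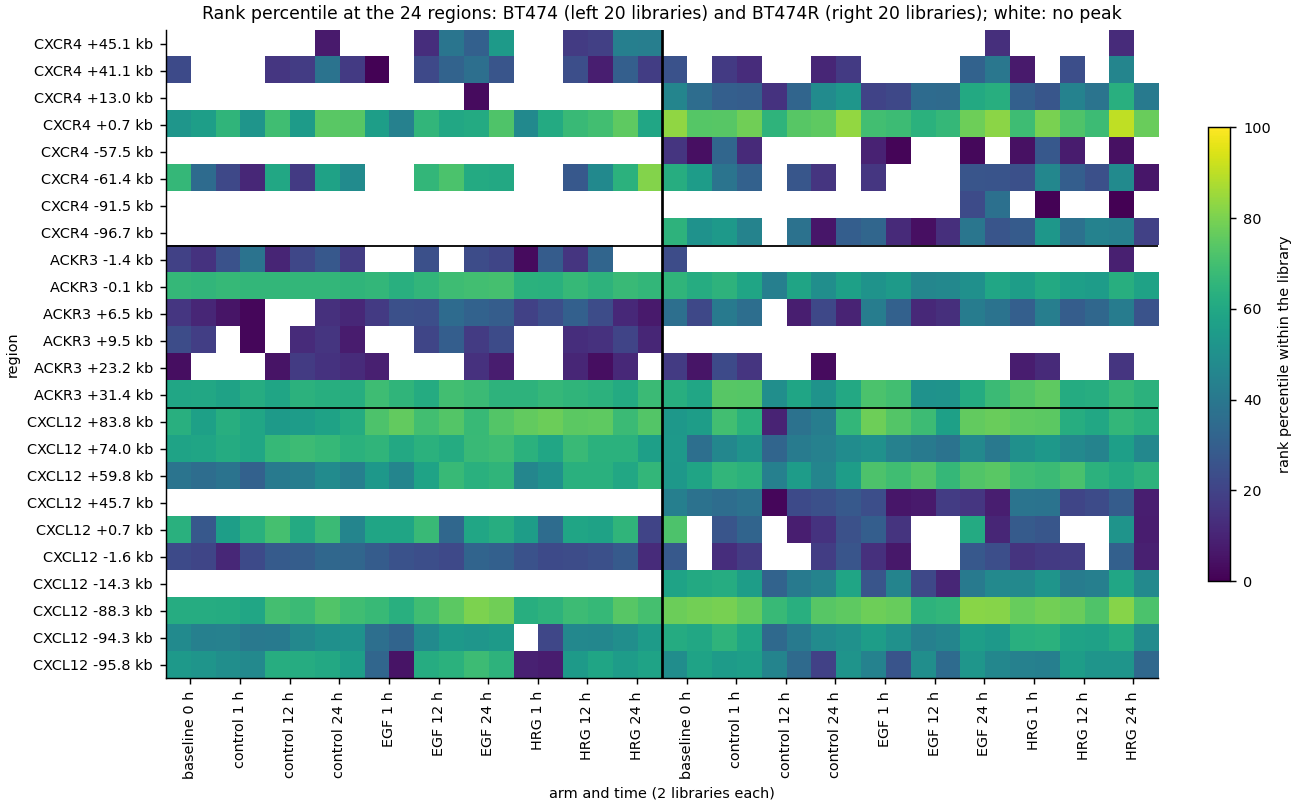
Rank percentile (color, 0 to 100) of the 24 regions (rows, grouped by locus) in each of the 40 libraries (columns, 2 per arm and time), BT474 on the left and BT474R on the right; white marks a library with no peak in the region. 8 regions are colored in every column, and 5 are white in every BT474 library.

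To ask whether EGF or HRG opened or closed regions at these genes, each ligand was compared with the control of the same line. The EGF and HRG comparisons share their control libraries. By presence of a peak, 6 libraries against 6, none of the 24 regions was called in any of the 4 comparisons at an unadjusted p under 0.05 by Fisher's exact test. Where every library or no library of both arms held a peak, this test could give no call. CXCL12 +83.8 kb and CXCL12 +59.8 kb were such regions in all 4 comparisons. The shares called over all 71600 regions were also low, at 1.19% (EGF) and 1.64% (HRG) in BT474 and 0.388% (EGF) and 0.207% (HRG) in BT474R, and none passed adjustment over all regions.

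By percentile, in limma fits over all regions, 5 of 24 regions were higher in EGF-BT474 than in control (20.8% against 12.8% of all regions) and none was lower. In HRG-BT474, 4 were higher (16.7% against 10.7%) and 1 was lower (4.17% against 4.08%). EGF-BT474R had 3 higher (12.5% against 9.75%) and 1 lower (4.17% against 3.03%), and HRG-BT474R had 1 higher (4.17% against 4.63%). With 24 regions these shares cannot be set apart from those of the genome. The median difference of the 24 regions was 0.60, 0, 0 and 3.02 points in these comparisons, against 0.51, 0, 0 and 1.38 over all regions.

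CXCL12 +59.8 kb was called in all 4. In BT474 it ranked at 38.4 and 35.7 at baseline, from 31.2 to 48.1 in control (median 41.5, n = 6), from 45.6 to 67.4 in EGF (median 60.7, n = 6) and from 46.0 to 66.3 in HRG (median 61.7, n = 6). Within each time point both libraries of each ligand were above both control libraries. It rose by 18.2 points after EGF (SE 2.17, limma adjusted p = 3.58e-04) and by 17.7 points after HRG (SE 2.17, limma adjusted p = 3.46e-04).

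In BT474R, where CXCL12 +59.8 kb already ranked at 53.5 and 58.3 at baseline, control ranged from 43.7 to 65.7 (median 55.4, n = 6), EGF from 66.5 to 74.6 (median 72.4, n = 6) and HRG from 61.2 to 71.1 (median 66.4, n = 6). Every EGF library was above every control library, while the HRG range overlapped that of control. The rise was 16.4 points after EGF (SE 2.44, limma adjusted p = 0.00121) and 11.5 points after HRG (SE 2.44, limma adjusted p = 0.0248). An exact permutation of the arms within time points gave p = 0.00926 in each of the 4 comparisons, two-sided, the smallest that 216 arrangements allow. Without the 12 h libraries the difference after HRG in BT474R was 8.13 points and was not called (limma adjusted p = 0.290), and the call was also lost in 6 of the 20 fits that left out 1 library (9.57 to 13.4 points), those without control 1 h replicate 2, control 12 h replicate 1, control 24 h replicate 1, HRG 1 h replicate 2, HRG 12 h replicate 1 or HRG 24 h replicate 1. An equal number of top peaks and the centred log2 score lost this call too.

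CXCL12 +83.8 kb was also higher after both ligands in BT474. It ranked from 54.4 to 62.5 in control, from 67.5 to 76.1 in EGF and from 68.1 to 77.7 in HRG, so every ligand library was above every control library. The rises were 13.5 points (SE 1.58, limma adjusted p = 3.19e-04) and 15.7 points (SE 1.58, limma adjusted p = 1.01e-04). They were also called at each time, with 13.3 and 16.0 points at 1 h, 16.6 and 20.2 at 12 h, and 10.7 and 11.0 at 24 h.

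At CXCL12 +83.8 kb the single-time calls held less well than those over the 3 times. In the fit of all 40 libraries the HRG call at 12 h was kept (limma adjusted p = 0.0427) and the other 5 were lost (limma adjusted p from 0.126 to 0.360). Of the 20 fits that left out 1 library, 12, 18 and 17 kept the EGF calls at the 3 times in order, and 19, 20 and 17 the HRG calls. At 1 h the EGF call was lost without any 1 h library of control or EGF or any 12 h library of control or HRG (11.3 to 15.4 points), and the HRG call without control replicate 2. At 12 h the EGF call was lost without control replicate 1 or EGF replicate 2. At 24 h both calls were lost without either control library or without replicate 2 of that ligand, and the EGF call also with an equal number of top peaks.

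In BT474R the control libraries of CXCL12 +83.8 kb spread widely, at 69.8 and 63.8 at 1 h, 10.1 and 37.8 at 12 h, and 42.4 and 66.3 at 24 h. EGF ranked from 56.8 to 78.0 and HRG from 59.98 to 75.1, and both ranges overlapped that of control. The rise was 23.2 points after EGF (SE 5.01, limma adjusted p = 0.0109) and 18.6 points after HRG (SE 5.01), which was not called (limma adjusted p = 0.0654). The 12 h controls held 32479 and 40331 peaks, and the 12 h EGF libraries, with 38205 and 37476 peaks, ranked at 68.6 and 56.8; the part of peak number was not tested. Without the 12 h libraries of both lines the EGF difference was 15.5 points and was not called (limma adjusted p = 0.108). The test of the difference between the lines gave limma adjusted p = 0.291 for EGF and 0.812 for HRG at this region.

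**Figure D4:**
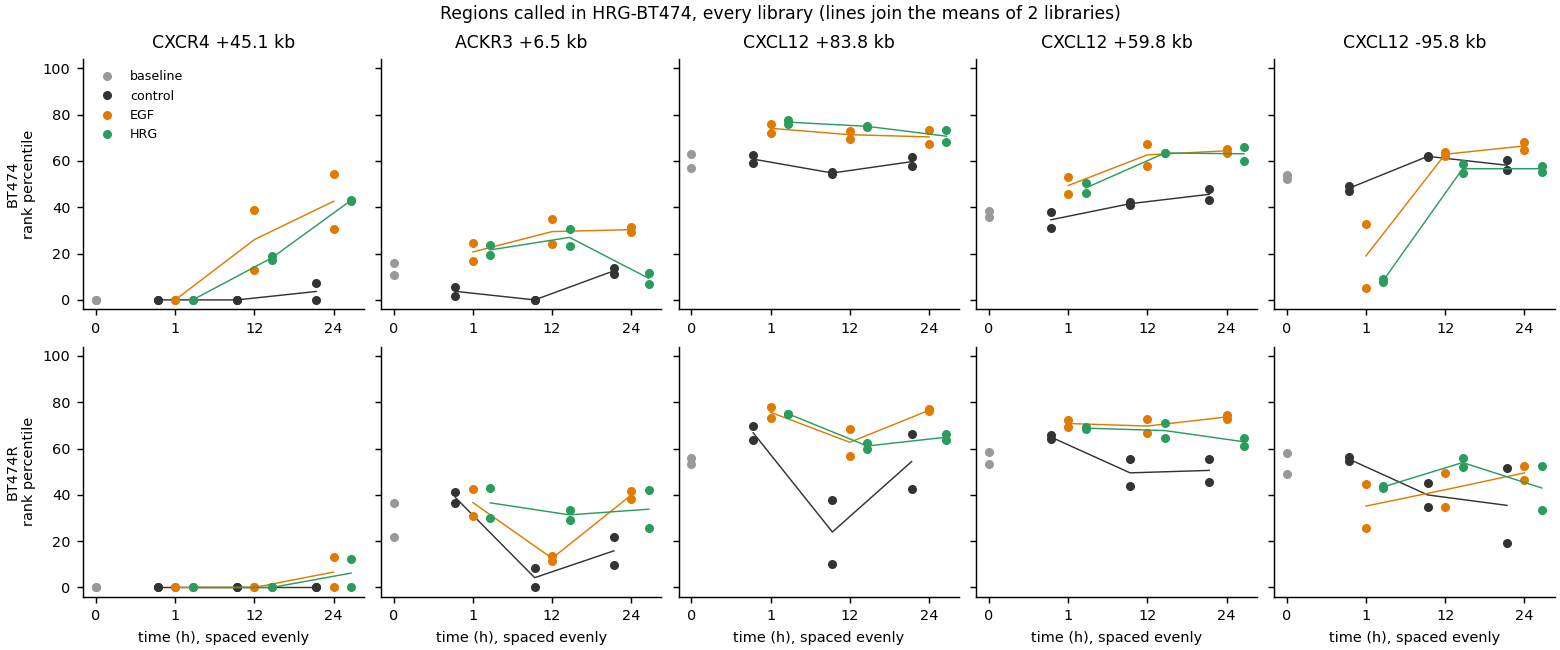
Rank percentile (vertical axis, 0 to 100) at the 5 regions called in HRG-BT474 against time in h (horizontal axis, spaced evenly) in BT474 (upper row) and BT474R (lower row). Each point is 1 library and lines join the means of 2 libraries per arm and time. CXCL12 +83.8 kb and CXCL12 +59.8 kb lie above control after both ligands in BT474, where CXCL12 -95.8 kb is low at 1 h after both ligands and CXCR4 +45.1 kb leaves 0 at 12 and 24 h.

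A pair of neighbouring intergenic regions far upstream of CXCL12 fell at 1 h in BT474. CXCL12 -95.8 kb ranked at 49.3 and 47.0 in the 1 h control libraries, at 32.9 and 5.11 in EGF and at 9.12 and 7.83 in HRG, so all 4 ligand libraries were below both controls. The differences were -29.2 for EGF (SE 6.38, limma adjusted p = 0.0435) and -39.7 for HRG (SE 6.38, limma adjusted p = 0.00511). By 12 h the region was back at 62.1 and 63.7 in EGF and 54.6 and 58.7 in HRG, beside 62.2 and 61.8 in control.

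CXCL12 -94.3 kb showed the 1 h fall after HRG, with no peak in 1 HRG library and 21.2 in the other against 43.9 and 40.4 in control (difference -31.6, SE 5.40, limma adjusted p = 0.00699). After EGF it ranked at 36.4 and 32.3 and the difference of -7.78 was not called. In BT474R the 1 h differences at CXCL12 -95.8 kb were -20.3 for EGF and -12.1 for HRG (SE 10.4 each), neither of them called. The 1 h call for EGF in BT474 at CXCL12 -95.8 kb was lost in 18 of the 20 fits that left out 1 library, all but those without an EGF 1 h library, and the difference ranged from -43.1 to -15.3. The call for HRG there was kept in all 20, and that at CXCL12 -94.3 kb was lost without control 1 h replicate 1. The CXCL12 -94.3 kb call was also lost with a score of at least 400 and with an equal number of top peaks. Over the 3 times CXCL12 -95.8 kb fell by 15.5 points in HRG-BT474 (SE 3.69, limma adjusted p = 0.0168), and without the 12 h libraries the difference was -20.6 and was not called (limma adjusted p = 0.0546).

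The intergenic CXCR4 +45.1 kb was the CXCR4 region that changed after both ligands. In BT474 it had no peak at baseline, at 1 h in any arm or at 12 h in control, and 1 of the 2 controls at 24 h ranked at 7.28. After EGF it ranked at 13.1 and 39.0 at 12 h and at 30.7 and 54.5 at 24 h. After HRG it ranked at 17.3 and 19.0 at 12 h and at 43.3 and 42.7 at 24 h.

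These values made CXCR4 +45.1 kb higher by 21.7 points in EGF-BT474 (SE 4.57, limma adjusted p = 0.00946) and by 19.2 points in HRG-BT474 (SE 4.57, limma adjusted p = 0.0170). The SE pools all groups of the line. Those at baseline, at 1 h and in control at 12 h were at 0 and added no spread. By exact permutation within time points, two-sided, the test gave p = 0.0556 and p = 0.0556, the smallest it can give when the 1 h libraries are all at 0. In presence the difference was 4 of 6 against 1 of 6 libraries for each ligand (Fisher p = 0.242, exact, two-sided). Neither percentile difference was called when only peaks with a score of at least 400 were used, or with an equal number of top peaks.

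In BT474R, CXCR4 +45.1 kb was open in 1 EGF library at 24 h (13.3) and 1 HRG library at 24 h (12.4). The EGF effect was smaller in BT474R than in BT474 (difference of the effects -19.46, limma adjusted p = 0.0151), and so was the HRG effect (-17.1, limma adjusted p = 0.0442), whose call was kept in 11 of the 40 fits that left out 1 library. Neither interaction was called without the 12 h libraries, where they were -16.2 and -16.6 points.

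CXCR4 -91.5 kb had peaks in 4 BT474R libraries alone. They were the 2 EGF libraries at 24 h, at 22.9 and 36.9, and 2 HRG libraries at 0.527 and 0.38, close to the lowest-ranked peaks of their lists. The region was called as higher in EGF-BT474R (9.95 points, SE 1.78, limma adjusted p = 0.0038) on the 24 h libraries. Most BT474R groups held no peak there, so the SE rests mainly on libraries at 0. The call was lost with a score of at least 400, with equal top peaks and on the centred log2 score. Exact permutation within time points, two-sided, gave p = 0.333. It can give no smaller value where only 24 h libraries hold a peak. Another CXCR4 region, CXCR4 -61.4 kb, had no peak in any of the 4 ligand libraries of BT474 at 1 h, against 21.7 and 11.1 in control, but its 1 h difference of -16.4 (SE 13.5) was not called.

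ACKR3 +6.5 kb was the only ACKR3 region called over the 3 times. In control-BT474 it ranked from 0 to 13.8 and in EGF-BT474 from 16.9 to 35.0, so that the ranges did not overlap, and it rose by 21.4 points (SE 2.28, limma adjusted p = 1.79e-04). In HRG-BT474 it ranked at 19.3 and 23.9 at 1 h, 30.6 and 23.4 at 12 h, and 11.6 and 7.04 at 24 h, the last beside 13.8 and 11.3 in control. The HRG rise over the 3 times was 13.9 points (SE 2.28, limma adjusted p = 0.00213), and the difference was 7.33 points and not called without the 12 h libraries (limma adjusted p = 0.0976).

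In BT474R the differences at ACKR3 +6.5 kb were 10.1 points for EGF and 14.3 points for HRG (SE 4.11 each), with limma adjusted p of 0.165 and 0.0828. When each library was held to the same count of top peaks, neither call in BT474 remained, since no BT474 library then held a peak there. ACKR3 +9.5 kb was called at 12 h in EGF-BT474 (20.8 and 30.0 against 0 and 12.3 in control), a call lost in 14 of the 20 fits that left out 1 library (13.1 to 25.4 points) and kept without control 12 h replicate 2, EGF 12 h replicate 1 or a control or HRG library of 24 h. It was also lost in 6 of 8 other settings, among them the replicate block (limma adjusted p = 0.0588).

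CXCL12 -14.3 kb, open in BT474R alone, was the member that fell after EGF in that line. It ranked at 61.8 and 55.5 in control at 1 h, 31.7 and 41.3 at 12 h, and 44.7 and 58.7 at 24 h. After EGF it ranked at 26.3 and 45.2, 21.7 and 10.9, and 41.0 and 47.0 at these times, and the ranges overlapped at 24 h. The difference was -16.9 (SE 4.06, limma adjusted p = 0.0192), while HRG differed from control by -0.56 (SE 4.06). The EGF call was lost in 4 of the 20 fits that left out 1 library (-20.1 to -13.8), those without control 1 h replicate 1, control 24 h replicate 2, EGF 12 h replicate 2 or EGF 24 h replicate 1. It was also lost with a score of at least 400 and without the 12 h libraries (-15.3, limma adjusted p = 0.155).

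EGF and HRG were also compared with each other. In BT474 none of the 24 regions was called (0.542% of all regions), with 3 regions at p under 0.05 by permutation without adjustment. In BT474R CXCR4 -91.5 kb was higher after EGF (4.17% of the members against 2.52% of all regions) and CXCL12 -14.3 kb lower (4.17% against 2.24%), by 9.80 and -16.4 points. The CXCR4 -91.5 kb call was lost with a score of at least 400, with equal top peaks and by exact permutation (two-sided, p = 0.333). The CXCL12 -14.3 kb difference had a limma adjusted p of 0.0478 and was kept in 6 of the 20 fits that left out 1 library (-19.5 to -13.2), those without a control library of 12 or 24 h, EGF 1 h replicate 2 or HRG 24 h replicate 2. That call was kept in 5 of 10 other settings. It was lost with a score of at least 400, equal top peaks, at least 50% coverage, the replicate block or the 12 h libraries left out.

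Taking 1, 12 and 24 h singly, EGF-BT474 had 2, 4 and 5 regions called in either direction, against 2.43%, 5.12% and 10.5% of all regions. For HRG-BT474 they were 4, 3 and 3, against 6.50%, 7.05% and 8.80%. EGF-BT474R had 0, 2 and 2, against 2.27%, 3.48% and 12.3%, and HRG-BT474R had 0, 3 and 0, against 0.827%, 4.63% and 0.641%. The HRG-BT474R calls at 12 h were CXCL12 +83.8 kb, CXCL12 +59.8 kb and CXCL12 -94.3 kb, each set against the 2 control libraries with few peaks, and they were kept in 3, 9 and 17 of the 20 fits that left out 1 library. CXCL12 -88.3 kb rose by 5.18 points in EGF-BT474 over the 3 times (SE 1.24, limma adjusted p = 0.0184), a call lost in 4 of the 20 fits that left out 1 library (4.28 to 6.09 points), those without control 1 h, 12 h or 24 h replicate 2 or EGF 1 h replicate 1. This call was also lost with an equal number of top peaks and on the centred log2 score.

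The test of whether a ligand acted differently in the lines called 3 of 24 regions for EGF (12.5% against 8.75% of all regions) and 2 of 24 for HRG (8.33% against 6.12%). For EGF they were CXCR4 +45.1 kb, CXCR4 -91.5 kb and CXCL12 -14.3 kb, and the last 2 were never open in BT474, so the difference there equals the EGF difference in BT474R and is no separate result. For HRG they were CXCR4 +45.1 kb and CXCL12 -94.3 kb.

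Other genes of the axis were read at their promoters, from lists chosen for this work. Of 21 other chemokine receptor genes, 6 had a promoter region, and those of CCR3, CCR7 and ACKR2, a scavenging receptor of inflammatory chemokines, were open in all 40 libraries. CX3CR1, the receptor of fractalkine, had a promoter region open in 0 BT474 and 17 BT474R libraries. CXCR6 and CCR2 went the other way, open in 9 and 5 BT474 libraries and in 0 BT474R libraries. By percentile 2 of the 6 were higher and 4 lower in BT474R, beside 19.4% and 61.4% of all promoter regions. The region at CCR3 was called as higher in each of the 4 ligand comparisons, by 2.03, 1.43, 3.39 and 3.78 points, and none of the other receptor promoters was called; 1.04% to 3.57% of all 12378 promoter regions were called as higher.

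Of 30 genes of CXCR4 signaling and turnover, 23 had a promoter region, and 5 were higher and 17 lower in BT474R (limma adjusted p under 0.05), beside 19.4% higher and 61.4% lower of all promoter regions. JAK2, a kinase of many cytokine receptors, had a promoter region open in 20 BT474 and 0 BT474R libraries (limma adjusted p = 5.36e-14). GNAI1, an inhibitory G protein subunit, was open in 20 and 7 libraries and ranked lower in BT474R by 45.2 points (limma adjusted p = 3.56e-11). RGS16, which limits G protein signaling, ranked higher by 15.9 points. ARRB1 and ARRB2, the arrestins, GRK6, which phosphorylates CXCR4, and ITCH, the ubiquitin ligase that sorts it for degradation, were open in all 40 libraries at mean percentiles of at least 90.8.

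After the ligands, 1 of the 23 promoters was called as higher in each of EGF-BT474, HRG-BT474 and EGF-BT474R and none in HRG-BT474R, and none was lower. Of all 12378 promoter regions 3.57%, 2.66%, 1.86% and 1.04% were higher in these 4 comparisons, and nothing is read from the counts. They were GNA13 in EGF-BT474 (0.12 points), and RAC2 in HRG-BT474 (7.33 points) and EGF-BT474R (28.3 points). RAC2 was open in 3 BT474 and 9 BT474R libraries. Among 5 other ligands of these receptors, CXCL11 had no promoter region, and ADM, which encodes adrenomedullin, was lower in BT474R by 39.7 points (limma adjusted p = 1.97e-15) and was the only one of these ligands called after EGF or HRG (-0.995 points in EGF-BT474, limma adjusted p = 0.0391).

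The protein-coding genes whose promoter percentile was most like that of each member were taken over the 40 libraries among 14209 genes, as a description. For CXCR4 they were CNNM3, KHK and VSIG10 (Pearson's r of 0.853, 0.847 and 0.845). For ACKR3 they were C2CD2L and DPAGT1, which share 1 region (0.928), and RAET1G (0.922), and for CXCL12 INSYN1, CFAP20DC and KAT2A (0.912, 0.903 and 0.896). The promoters of all 3 genes named for ACKR3 and all 3 for CXCL12 had a lower mean percentile in BT474R, and those named for CXCR4 a higher one, so the line difference and differences between libraries are shared by these points.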

How the data were processed

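ATAC-seq libraries of BT474 and BT474R were analysed from peak lists. Per the study's methods and the labels, the authors checked reads with FastQC, trimmed them with Trim Galore (0.6.6), aligned them with BBMap to GRCh38.p13, removed mitochondrial and blacklisted reads and called peaks in each library with Genrich; the Genrich options were not found in the sources read for this work. The deposited lists hold a peak score in column 7 and no read counts, so the depth of a library is unknown, values are not scaled between libraries, and the study's differential test on reads was not repeated.

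Peaks of the 40 lists were merged where they shared at least 1 bp, and regions in at least 2 lists were kept. In each library the score was turned into a percentile of its rank, the best peak of a region was taken, and a region with no peak was set to 0. Regions with a midpoint in a gene or within 100 kb were the members. Presence was compared with Fisher's exact test (6 libraries against 6, or 20 against 20, two-sided, called at an unadjusted p under 0.05), and percentiles with limma 3.58.1 (R 4.3.3, trend and robust), fitted over all 71600 regions per line, or over both lines for line differences and interactions, called at a Benjamini-Hochberg adjusted p under 0.05. Single regions were also tested by exact permutation of arms within time points. On simulated data limma recovered 83% of regions raised by 30 points and 36% of those raised by 15 in EGF-BT474 (100 each, of 71600 regions), and 71% and 18% in EGF-BT474R. The simulation used normal noise around 1 mean per region and raised the EGF libraries of all times. Far fewer regions were raised than were called in the data. The rates do not describe regions often without a peak or changed at 1 time.

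A promoter was the 1 kb on either side of an annotated start. Named genes and regions were the members, those called in a comparison, the genes of lists on the axis, and the 3 genes most like each member's promoter. The members and lists were chosen with earlier results of these data known. Some sequences and 1 marker gene are not reported here. Alternatives were at least 50% of a region covered, a minimum score of 400, the same count of top peaks in every library, a centred log2 score, libraries without a peak left out, a replicate block, a fit of all 40 libraries, permutation, leaving out each library, and, chosen after seeing the data, regions open in at least 4 fitted libraries and the 12 h libraries left out. Tables were handled with pandas 2.3.3 and numpy 2.4.6, tests other than limma with scipy 1.17.1, and plots with matplotlib 3.10.9.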

Additional observations from a re-analysis of the deposited data

Results flagged for a closer look

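The limma interaction test of a ligand between the lines called 4 regions, and at 2 of them no BT474 library held a peak. At CXCR4 +45.1 kb the EGF effect, taken as BT474R less BT474, differed by -19.46 percentile points (limma adjusted p = 0.0151) and the HRG effect differed by -17.11 points (limma adjusted p = 0.0442). Both calls were lost with a score of at least 400 and with equal top peaks. At CXCR4 -91.5 kb the EGF effect was larger in BT474R by 9.953 points (limma adjusted p = 7.4e-04), which rested on the 2 EGF libraries at 24 h and was lost with a score of at least 400, with equal top peaks and on the centred log2 score. At CXCL12 -14.3 kb the EGF effect differed by -16.91 points (limma adjusted p = 0.011), a call lost with a score of at least 400. With no peak in BT474 at CXCR4 -91.5 kb and CXCL12 -14.3 kb, these differences equal the EGF differences in BT474R and are no separate result. The BT474 libraries, all at 0 there, add no spread to the fit of both lines. Its p-values at these 2 regions therefore do not measure the spread of the EGF and control libraries alone. At CXCL12 -94.3 kb the HRG effect differed by 18.07 points (limma adjusted p = 0.00527). The HRG differences there were -9.1 points in BT474 and 8.96 points in BT474R, and neither was called. With an equal number of top peaks the interaction call was lost. No 12 h library held a peak at CXCR4 -91.5 kb, so leaving these libraries out could not test that call (14.9 points, limma adjusted p = 0.00173). Without them the other differences were -16.2 and -16.6 at CXCR4 +45.1 kb, -15.3 at CXCL12 -14.3 kb and 18.4 at CXCL12 -94.3 kb, none of them called.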

How the results depend on the processing

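No called ligand or interaction difference changed sign under an alternative that gave a value. The differences called between the lines were not followed region by region for a change of sign. The pooled calls at CXCL12 +83.8 kb and CXCL12 +59.8 kb in BT474 held under each of 10 alternatives and in all 20 fits that left out 1 library. The counts of regions called moved as follows, and the cause was not tested. With a score of at least 400 they were 3 for EGF-BT474 over the 3 times (12 h: 2, 24 h: 2), 3 for HRG-BT474 (1 h: 2), 2 for EGF-BT474R and 1 at 12 h, 2 for HRG-BT474R, 0 for EGF against HRG in BT474R, 5 for presence between the lines, and 0 (EGF) and 1 (HRG) for the interactions. With equal top peaks they were 2 for EGF-BT474 (12 h: 2, 24 h: 1), 3 for HRG-BT474, 1 for EGF-BT474R at 12 h and 1 at 24 h, 0 for HRG-BT474R and 0 at 12 h, 0 for EGF against HRG in BT474R, 6 for presence and 13 for percentile between the lines, and 1 for each interaction. With libraries without a peak left out they were 3 for EGF-BT474 and 2 at 12 h, 3 for HRG-BT474, 1 for EGF-BT474R at 24 h, 2 for HRG-BT474R, 1 for EGF against HRG in BT474R, 7 for percentile between the lines, and 0 and 1 for the interactions. In the fit of all 40 libraries they were 3 for EGF-BT474 at 24 h, 3 for EGF-BT474R at 1 h and 5 at 24 h, 4 for HRG-BT474R and 6 at 12 h, and 4 for EGF against HRG in BT474R. Without the 12 h libraries they were 3 for HRG-BT474, 2 for EGF-BT474R, 0 for HRG-BT474R, 1 for EGF against HRG in BT474R, and 1 and 0 for the interactions. Permutation without adjustment called 3 and 6 for EGF against HRG in BT474 and BT474R and 4 for HRG-BT474R. Regions open in at least 4 libraries gave 2 for HRG-BT474R and 5 at 12 h, baseline and control libraries alone gave 6 for presence between the lines, the centred log2 score gave 0 for HRG-BT474R at 12 h, and at least 50% coverage gave 1 for EGF against HRG in BT474R.

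Leaving out each library in turn kept every count within 1.5 times in 12 of 26 comparisons. In the others the counts ranged from 0 to 3, 1 to 5 and 0 to 7 for EGF-BT474 at the 3 times, from 2 to 5 (1 h) and 0 to 4 (24 h) for HRG-BT474, and 0 to 1, 0 to 2 and 1 to 4 for EGF-BT474R at 1, 12 and 24 h. They ranged from 0 to 4 for HRG-BT474R and 0 to 6 at 12 h, 0 to 2 and 1 to 6 for EGF against HRG in BT474 and BT474R, and 3 to 5 and 1 to 2 for the interactions.

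Same-numbered replicates did not deviate together (correlations from -0.143 to 0.162 over 12 comparisons, 2 of them over 0.1), so the numbers were not taken as pairs. With the replicate block the counts moved to 1 for EGF-BT474R at 12 h, 1 for HRG-BT474R at 12 h and 1 for EGF against HRG in BT474R. It also ended the EGF-BT474 call at ACKR3 +9.5 kb at 12 h (limma adjusted p = 0.0588). The number of member regions was 8 within 10 kb and 15 within 50 kb. With 2 libraries per group and no counts, the spread between libraries is the only measure of error.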
